A study of Mus musculus with 6 samples.

Results

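The clustered protocadherins are cadherin-family cell surface proteins encoded in 3 tandem gene clusters, alpha, beta and gamma, on mouse chromosome 18. The count table of hippocampal messenger RNA holds 58 rows of these genes, chosen by name alone, among 53715 annotated genes: 14 alpha, 22 beta and 22 gamma. The 6 animals were C57BL/6J males, a common inbred laboratory strain, and 2 to 3 months old. A ketogenic diet, high in fat and low in carbohydrate, was given for 3 weeks to 3 of them, and a control diet for the same time to the other 3. The series asks about neuregulin 1 and ErbB4 signalling under this diet, and the comparison made here is whether the diets differed in protocadherin messenger RNA. The libraries are called ketogenic 1 to 3 and control 1 to 3. The numbers name the libraries and nothing in the labels ties equal numbers to a shared litter or day.

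Each neuron expresses a small set of these isoforms. Each isoform has its own promoter, and promoters are chosen with the help of the insulator protein CTCF and the cohesin complex. The chosen first exon of an alpha or gamma gene is spliced to constant exons that all genes of the cluster share. The proteins form combinatorial homophilic assemblies between cell membranes, which let neurites of one neuron recognise each other and take part in dendrite branching, synapse formation and neuron survival. The last genes of the alpha and gamma clusters, called C-type (Pcdhac1, Pcdhac2, Pcdhgc3, Pcdhgc4 and Pcdhgc5), differ in sequence from the other isoforms and many neurons use them without the random choice that governs the rest. Beta genes consist mostly of a single exon and have no constant exons.

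The libraries summed to between 16832240 and 18357792 counts over all genes. The 58 rows together took between 0.0494% and 0.0576% of them. Levels are CPM, counts scaled to a common library size after TMM normalization, and are given for each library or as mean ± SD (n = 3 for each diet). A change is the log2 fold change of ketogenic over control with its standard error (SE), from edgeR's quasi-likelihood test on all 16478 genes with enough counts, with Benjamini-Hochberg adjusted p over those genes and a threshold of 0.05. The extraction protocol in the labels speaks of retina, whereas the tissue label says hippocampus. Only 1 of 8 markers of retina was tested, Crx was at 0 in all libraries, and the list's summed level lay between 2.30 and 3.29 CPM in ketogenic and between 1.95 and 3.21 CPM in control libraries. The 7 general neuron markers summed to between 9761.7 and 10641.0 CPM in ketogenic and between 11105.2 and 11492.5 CPM in control libraries. Its members did not move together: Camk2a (3744.9 ± 438.2 CPM in ketogenic and 5073.7 ± 36.7 CPM in control libraries) and Rbfox3 fell, Map2 rose, and Snap25, Syt1, Tubb3 and Slc17a7 did not pass. The hippocampal dentate granule cell list, with Prox1, summed to between 517 and 797 CPM in ketogenic libraries, against between 989 and 1166.6 CPM in control libraries.

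The clusters span positions 36930184 (start of Pcdha1) to 37841873 (end of the last gamma gene) on the plus strand. All 58 rows have the same start and end in GENCODE release M21 on GRCm38 as in the deposited table, so the coordinates were taken to be on that build. Because alpha and gamma genes overlap at their constant exons, a read there belongs to no single gene. The part of each row's exon sequence that no other gene of the table covers on either strand is called its own sequence here. It was a median of 46.4% of the exon bases in the alpha cluster (range 7.0% to 51.4%), 54.7% in the gamma cluster (0.0% to 68.5%) and 100% in the beta cluster (36.5% to 100%).

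Enough counts to test were present in 53 of the 58 rows, and every one of these 53 had at least 10 counts in all 6 libraries, with a lowest value of 17. The 5 untested rows had few reads in all libraries together. Pcdha8 had 45, Pcdhb1 had 19, Pcdha4 had 15, the row ENSMUSG00000102206 had 4 and Pcdhga10 had 1. For 3 of them other annotated genes cover a large part of the exon sequence that is not shared with other members. Pcdhga10 has 0 own bases, since a transcript annotated on the opposite strand, Gm26672, covers the 2613 bases that it does not share with other gamma genes. Pcdha4 has 404 own bases, as a read-through gene annotated from the alpha into the gamma cluster, Gm42416, covers 2410 of its bases. ENSMUSG00000102206, which the table names Pcdha11 like a second row, ENSMUSG00000007440, has 1268 own bases of 7535 exon bases. A similar length, 1256 own bases, went with 1308 reads in Pcdhga11. Pcdha8 and Pcdhb1 have 2478 and 2588 own bases, and their low counts stand without such an overlap. The read-through gene Gm42416 itself is listed at 0 in all 6 libraries. What the authors' counting did with reads in shared exons is not given in the sources used here. Pcdhga10 has 1 read over the 6 libraries, although it shares 2119 bases with other gamma genes. Reads there were thus not added to every gene they overlap.

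**Figure D1:**
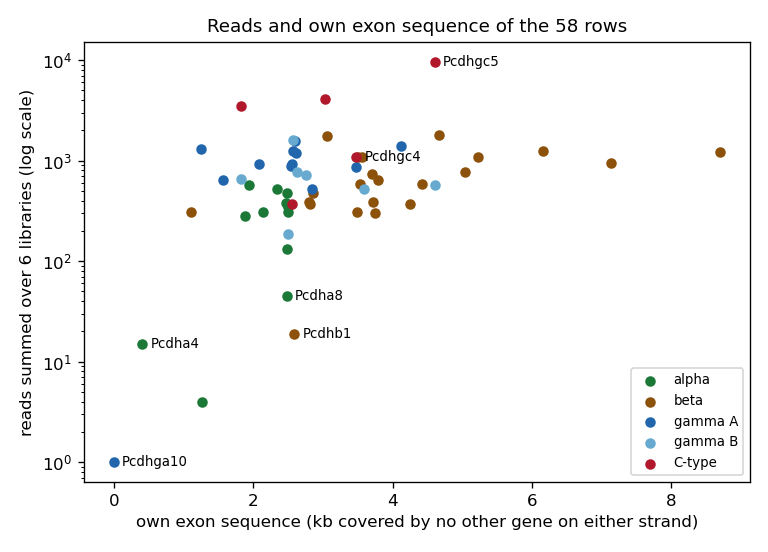
Reads of each of the 58 rows summed over 6 libraries (vertical axis, log scale) against own exon sequence in kilobases (horizontal axis). Points are rows coloured by kind. Pcdhga10, with 0 own bases, stands at 1 read and Pcdhgc5 at 9491, while Pcdha8 and Pcdhb1 have few reads at 2478 and 2588 own bases.

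Some members are also alike outside the exons they share. Of the stretches of 50 bases in exon sequence that no other member covers by position, a median of 3.66% per member occur without a mismatch in a transcript of another member. The share was over 10% in 15 members and highest in Pcdha7, at 23.4%, where Pcdha8 was the closest relative. Pcdhgb1 and Pcdhgb2 shared 16.8% and 16.4%, mostly with each other. For these members the counts depend on how the authors treated reads with several matches, and their values are uncertain to that extent. It was 0.0% in 10 members, among them all 5 C-type genes.

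The 3 highest levels belonged to C-type genes. Per kilobase of own sequence, Pcdhgc5 averaged 19.0 ± 0.848 CPM in ketogenic and 20.9 ± 1.48 CPM in control libraries. Pcdhgc3 averaged 17.6 ± 0.408 CPM per kilobase in ketogenic and 19.7 ± 1.65 CPM per kilobase in control libraries, which overlaps the range of Pcdhgc5 in control libraries only. Pcdhac2 followed with 12.8 ± 1.39 CPM per kilobase in ketogenic and 13.4 ± 1.29 in control libraries. The highest gene outside the C-type was Pcdhga11, at 9.61 ± 1.63 CPM per kilobase in ketogenic and 10.5 ± 0.570 in control libraries. Pcdhgb6 (5.96 ± 0.701 in ketogenic, 6.07 ± 0.458 in control libraries), Pcdhga3 (6.12 ± 0.416 in ketogenic, 5.65 ± 0.619 in control libraries) and Pcdhb9 (5.50 ± 0.275 in ketogenic, 5.63 ± 0.311 in control libraries) came next. The ranges of these genes overlap one another in control libraries, and in ketogenic libraries all but those of Pcdhga3 and Pcdhb9 do. The C-type genes are not all abundant. Pcdhgc4 ranked 18 of 57, and Pcdhac1, at 1.37 ± 0.117 CPM per kilobase in ketogenic and 1.39 ± 0.0473 in control libraries, ranked 39. Tested beta genes ran from 0.773 to 5.57 CPM per kilobase over all 6 libraries, tested alternate alpha genes from 0.520 to 2.87, gamma A genes from 1.78 to 10.1 and gamma B genes from 0.717 to 6.02. The rank of some genes depends on the length used. By the deposited gene length, which counts shared exons, Pcdhga11 ranked 10 in place of 4, and 7 of the 10 highest members were among the 10 highest by own sequence. Transcripts on the opposite strand, which cover 1559 bases of Pcdhgc3 (BC037039) and 1381 bases of Pcdhga11 (Gm26672), bear on the levels too. Where only overlaps on the same strand are left out, a choice made after the levels were seen, Pcdhgc3 stood at 10.1 CPM per kilobase over the 6 libraries in place of 18.7 and Pcdhga11 at 4.80 in place of 10.1. Pcdhgc3 then ranked below Pcdhac2 and Pcdhga11 ranked 7. Which of these lengths applies depends on whether strand was used in counting, which is not given in the sources used here. Pcdhga10 had 1 read, with 2613 bases where only same-strand overlaps are left out and 0 own bases. Whether strand was used was not tested. The level of Pcdhgc5, the highest, and of Pcdhac2 is the same on both.

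**Figure D2:**
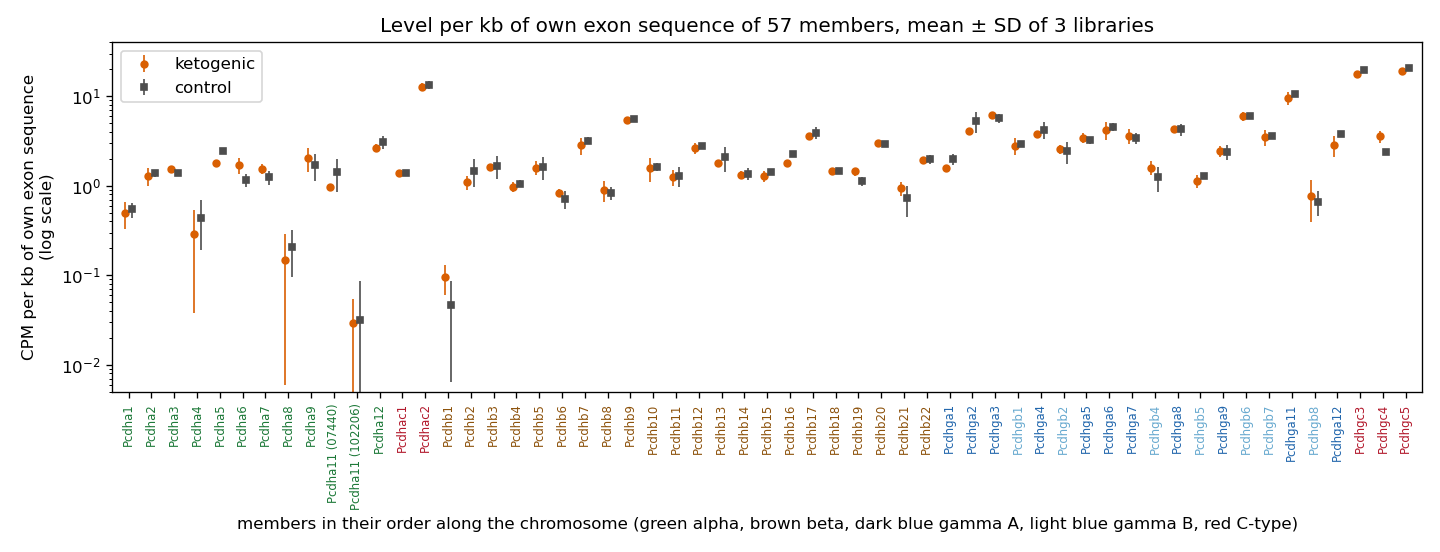
CPM per kilobase of own exon sequence (vertical axis, log scale) of 57 members in their order along the chromosome (Pcdhga10, with 0 own bases, is left out). Circles are ketogenic and squares control means, with bars of 1 SD of 3 libraries (bars that pass below the axis are cut by it). Pcdhgc5, Pcdhgc3 and Pcdhac2 lie highest in both diets and the untested rows lowest.

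The summed level of each cluster overlapped between the diets. The gamma cluster summed to 271.8, 292.4 and 300.3 CPM in ketogenic 1 to 3, against 304.6, 319.1 and 289.8 CPM in control 1 to 3. The beta cluster summed to 148.9, 163.6 and 156.5 CPM in ketogenic libraries and to 160.8, 179.4 and 146.9 CPM in control libraries. The alpha cluster summed to 68.2, 79.6 and 75.6 CPM in ketogenic libraries and to 81.2, 79.9 and 71.2 CPM in control libraries. Neither diet held all the low or all the high libraries in any cluster. The ratio of the means, ketogenic over control, was 0.946 for gamma, 0.963 for beta and 0.962 for alpha. No test was made of these sums. Without ketogenic 1 the log2 ratio of the alpha sum was 0.0034 in place of -0.056, and without control 2 that of the beta sum was 0.023 in place of -0.055. These are bulk samples, in which fewer cells of a type and less RNA per cell cannot be told apart.

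**Figure D3:**
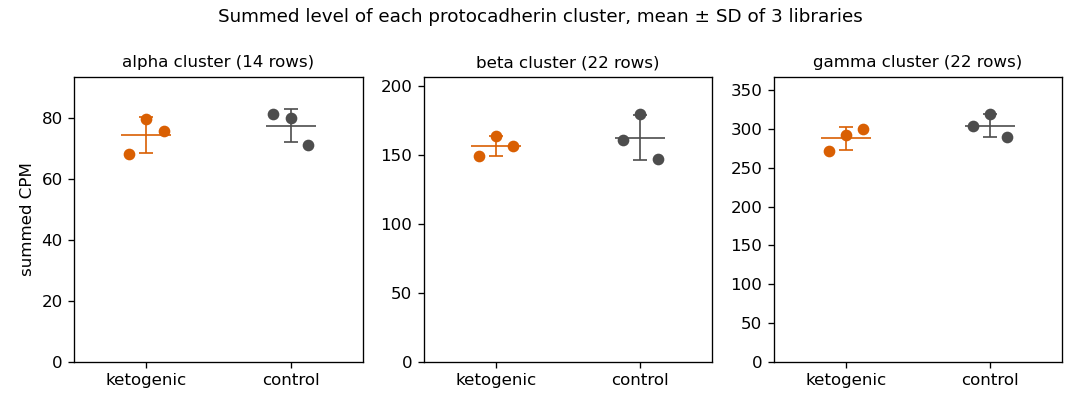
Summed CPM of all rows of each cluster in each library (points), with the mean and 1 SD of 3 libraries, ketogenic left and control right in each panel. The vertical axes start at 0, and the diets overlap in all 3 panels, with gamma sums of 271.8 to 300.3 CPM in ketogenic and 289.8 to 319.1 CPM in control libraries.

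The share of C-type genes and the evenness of isoforms overlapped between the diets as well. C-type genes made up 45.9% ± 0.652 of gamma reads in ketogenic and 46.2% ± 1.07 in control libraries (CPM not scaled by length). In the alpha cluster they made up 56.8% ± 1.28 in ketogenic and 56.9% ± 1.19 in control libraries, of which Pcdhac2 alone gave 52.1% ± 1.76 in ketogenic and 52.3% ± 1.56 in control libraries. The effective number of isoforms is the exponential of the Shannon entropy of the shares, again of CPM not scaled by length. It says how many isoforms of equal CPM would give the same evenness, and depends on how much own sequence each row has. It was 18.1 ± 0.274 in ketogenic and 17.8 ± 0.199 in control libraries for beta, 13.3 ± 0.244 in ketogenic and 12.8 ± 0.492 in control libraries for gamma, and 5.98 ± 0.197 in ketogenic and 5.94 ± 0.260 in control libraries for alpha. The ranges of these measures overlapped between the diets in each cluster. Among the 53 single tested members, the share of the cluster did not overlap for Pcdhgc4 and Pcdhb19, which took more in ketogenic libraries, and for Pcdha5 and Pcdhb16, which took less. The shares of the other tested members overlapped. Shares within a cluster and levels are unlike measures. For scale, levels did not overlap between the diets in 13.2% of the tested members and 27.6% of all tested genes. Across the 53 tested members ketogenic 1 was the lowest library in 18 and control 3 in 17, while control 2 was the highest in 15, so low and high libraries occurred in both diets.

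Of the 53 tested members 1 passed the threshold, Pcdhgc4, which was higher with the ketogenic diet. That is 1.89% of the tested members, where 9.67% of all tested genes passed (5.05% higher and 4.62% lower). At an unadjusted p under 0.05 there were 6 of 53 members, against 23.1% of all tested genes. The diets did not overlap in 7 members, 4 higher and 3 lower with the ketogenic diet, or 13.2%, against 27.6% of all tested genes. These were Pcdhgc4, Pcdhb19, Pcdha6 and Pcdha3 among the higher and Pcdha5, Pcdhb16 and Pcdhga1 among the lower ones. In the alpha and beta clusters 0 of 11 and 0 of 21 tested genes passed with edgeR (2 and 2 at an unadjusted p under 0.05), and DESeq2 also called 0 in each. The median log2 fold change was -0.05 over the 53 members and -0.01 over all tested genes. By cluster it was -0.06 for alpha, -0.05 for beta and -0.04 for gamma, and 34 of the 53 stood below 0. No tested member had a fitted change as large as 1.5-fold in either direction, whereas 11.6% of all tested genes did.

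These data bound the changes better for some members than for others. The members are low to moderate in abundance, with a median of 6.43 CPM against 18.6 CPM over all tested genes. Their median SE was 0.18, against 0.13 over all tested genes. For 30 of the 53 the 95% interval of the log2 fold change lay within 1.5-fold either way, and for 49 within 2-fold. By cluster, 14 of 21 gamma genes, 13 of 21 beta genes and 3 of 11 alpha genes lay within 1.5-fold. The rest, 8 alternate alpha genes and 8 beta genes among them, have intervals that reach past 1.5-fold in at least 1 direction, so a change of that size is not bounded for them at this depth.

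**Figure D4:**
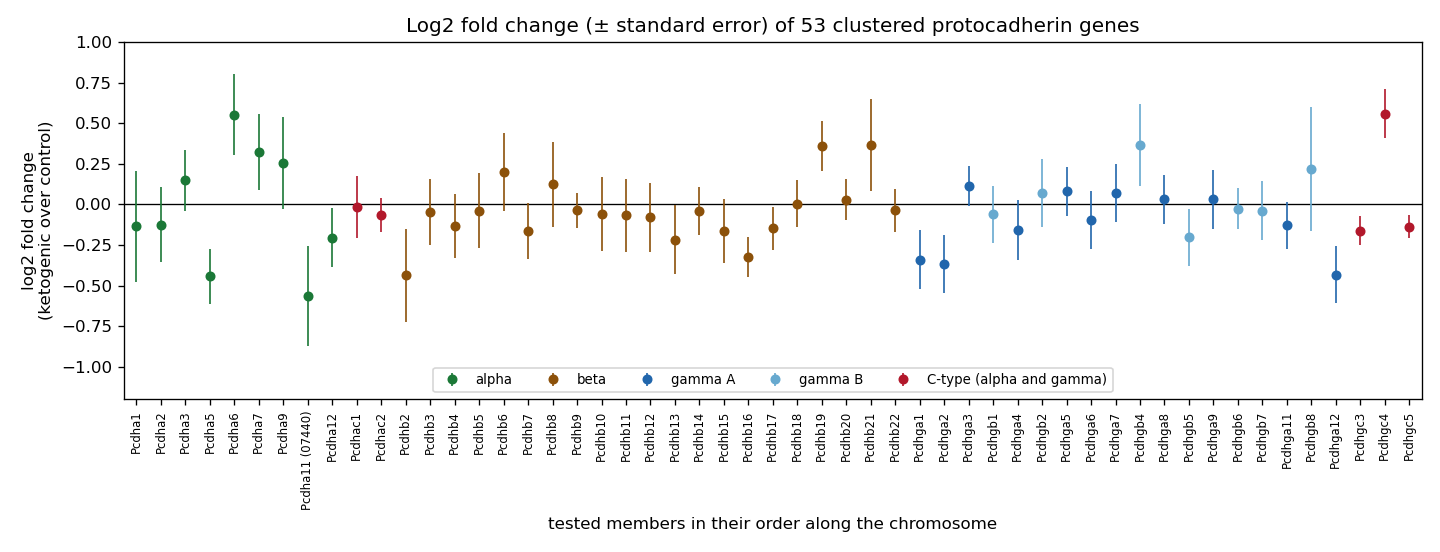
Log2 fold change, ketogenic over control, with its standard error as a bar, of the 53 tested members in their order along the chromosome, coloured by kind. Values run from -0.56 for Pcdha11 (ENSMUSG00000007440) to 0.56 for Pcdhgc4, the 1 member past the threshold, and most lie near 0.

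Pcdhgc4 had 10.8, 11.7 and 14.6 CPM in ketogenic 1 to 3, against 8.93, 7.74 and 8.47 CPM in control 1 to 3. Every ketogenic library was above every control library. In the mouse, Pcdhgc4 is the gamma isoform on which the survival of many neurons depends, cortical interneurons among them (ENSMUSG00000023036, 37815079 to 37841873). It averaged 12.4 ± 2.00 CPM in ketogenic and 8.38 ± 0.601 CPM in control libraries, and rose by 0.56 ± 0.15 on the log2 scale (95% interval 0.22 to 0.90, adjusted p = 0.0433 from edgeR). Its own sequence is 3477 bases, no other gene of the table overlaps it outside the shared exons, and 0.0% of its stretches of 50 bases outside those exons occur in another member. As a share of the 3 gamma C-type genes it made up 8.54%, 8.88% and 10.6% in ketogenic libraries, against 6.53%, 5.18% and 6.25% in control libraries.

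The call of Pcdhgc4 lies close to the threshold. It was kept without ketogenic 1 (adjusted p = 0.0355) and with DESeq2 (0.0279). It was lost without ketogenic 2 (adjusted p = 0.119), ketogenic 3 (0.150), control 1 (0.0689), control 2 (0.166) or control 3 (0.0627), without control 1 and 2 together (0.297), with limma-voom (0.0565) and on log2(FPKM + 1) values (0.0858). Its log2 fold change stayed positive, between 0.36 and 0.65, in the 16 alternatives run. Markers of some other cell types moved in the same libraries, where 9.67% of all tested genes passed. Of 12 interneuron markers, which include Gad1 and Gad2, 9 rose and 0 fell, with a summed level between 976 and 1274.4 CPM in ketogenic and between 688 and 701 CPM in control libraries, and 0 of the 12 were at 0. All 12 choroid plexus markers, Ttr among them, fell, with sums between 156 and 233 CPM in ketogenic and between 1201.5 and 10040.3 CPM in control libraries, where control 1 and 2 had the higher sums. Of 9 fibroblast markers 8 rose (sums of 183 to 272 CPM in ketogenic and 58.6 to 81.3 CPM in control libraries). Of 8 markers of subiculum and cortex 6 rose (427 to 468 CPM in ketogenic and 278 to 327 CPM in control libraries), and of 8 oligodendrocyte markers 7 fell (2770.8 to 3789.1 CPM in ketogenic and 5211.8 to 6600.8 CPM in control libraries). Of the astrocyte, microglia and endothelial markers 0 of 8, 0 of 6 and 0 of 6 passed, and of 6 CA1 markers 2 rose and 1 fell. The part of these markers in the level of Pcdhgc4 was not tested.

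The other C-type genes did not pass. Pcdhgc5, whose product was found at GABAergic synapses in the rat, had 83.8, 87.3 and 91.6 CPM in ketogenic libraries, against 90.5, 103.8 and 94.6 CPM in control libraries. Its log2 fold change was -0.14 ± 0.07, with an interval of -0.30 to 0.03 (adjusted p = 0.311) and overlapping libraries. Pcdhgc3, which in the mouse promotes dendrite branching of cortical neurons, had 31.6, 33.0 and 31.8 CPM in ketogenic libraries, against 37.4, 37.8 and 32.4 CPM in control libraries. Control 3 lay within the range of the ketogenic libraries, and the log2 fold change was -0.16 ± 0.09 (adjusted p = 0.331, interval -0.36 to 0.04). Reads of Pcdhgc3 and of BC037039, on the opposite strand, cannot be told apart without strand.

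**Figure D5:**
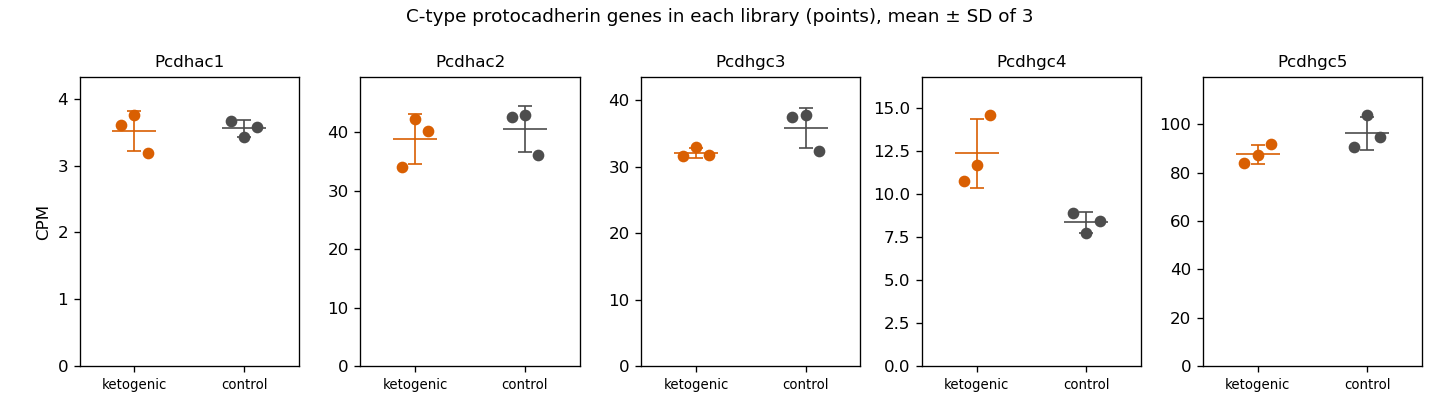
CPM of the 5 C-type genes in each library (points), with the mean and 1 SD of 3 libraries, ketogenic left and control right, on axes from 0. The diets overlap for 4 of the genes, and for Pcdhgc4 the ketogenic libraries (10.8 to 14.6 CPM) lie above the control libraries (7.74 to 8.93 CPM).

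Pcdhac2, which in the mouse sets the spacing of serotonergic axons, had 34.1, 42.2 and 40.2 CPM in ketogenic libraries, against 42.7, 43.0 and 36.1 CPM in control libraries. The diets overlapped, and the change was -0.06 ± 0.11 on the log2 scale (interval -0.30 to 0.17, adjusted p = 0.785). Pcdhac1 had 3.61, 3.76 and 3.18 CPM in ketogenic libraries, against 3.67, 3.43 and 3.57 CPM in control libraries. It stood at -0.01 ± 0.19 (adjusted p = 0.977), with an interval of -0.44 to 0.41, wider than those of the other C-type genes. The sign rested on single libraries in both genes: the change was 0.02 for Pcdhac2 without ketogenic 1, and for Pcdhac1 it was 0.05 without ketogenic 3 and 0.01 without control 1.

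Among beta genes Pcdhb17 and Pcdhb9 had the highest CPM. Pcdhb17 had 16.3, 16.1 and 17.4 CPM in ketogenic libraries, against 18.6, 21.2 and 15.2 CPM in control libraries, with the ketogenic libraries inside the control range (log2 fold change -0.15 ± 0.13, adjusted p = 0.580). Pcdhb9 had 16.3, 17.8 and 16.3 CPM in ketogenic libraries, against 18.2, 17.1 and 16.3 CPM in control libraries (-0.04 ± 0.11, adjusted p = 0.887). The interval was -0.27 to 0.20 for Pcdhb9 and -0.44 to 0.15 for Pcdhb17. Without control 2 the change of Pcdhb17 was -0.03, and without control 1 that of Pcdhb9 was 0.01. Beta proteins lack the constant cytoplasmic part of the alpha and gamma proteins, and the 21 tested beta genes ran from -0.44 to 0.37 in log2 fold change.

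Of the alternate alpha genes Pcdha12 had the highest CPM, with 4.74, 5.69 and 5.13 in ketogenic libraries, against 7.16, 5.44 and 5.33 in control libraries. These overlap, and the log2 fold change was -0.20 ± 0.18 (adjusted p = 0.573). Without control 1, its highest library, the change was -0.05. Alternate alpha genes held both the highest and the lowest changes besides Pcdhgc4, from -0.56 for ENSMUSG00000007440 to 0.55 for Pcdha6. They are among the members with few reads, at a median of 3.33 CPM, and their median SE was 0.23.

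A further 5 members had an unadjusted p under 0.05 and did not pass after adjustment. They are named here because of their values. Pcdha5 had 3.99, 4.33 and 4.42 CPM in ketogenic libraries, against 6.15, 5.91 and 5.26 CPM in control libraries (log2 fold change -0.44 ± 0.17, adjusted p = 0.141). Pcdhb16 had 9.22, 8.88 and 9.96 CPM in ketogenic libraries, against 11.2, 11.9 and 12.04 CPM in control libraries (-0.33 ± 0.12, adjusted p = 0.143). In both genes every ketogenic library was below every control library. Pcdhb19 had 9.11, 11.2 and 10.7 CPM in ketogenic libraries, against 8.46, 8.75 and 6.90 CPM in control libraries (0.36 ± 0.15, adjusted p = 0.184). Pcdha6 had 3.83, 2.56 and 3.24 CPM in ketogenic libraries, against 2.19, 1.83 and 2.54 CPM in control libraries (0.55 ± 0.25, adjusted p = 0.215). In these 2 genes the ketogenic libraries were the higher ones without overlap. Pcdhga12 had 10.8, 9.11 and 15.03 CPM in ketogenic libraries, against 16.7, 16.0 and 14.4 CPM in control libraries (-0.43 ± 0.17, adjusted p = 0.166). There ketogenic 3 lay within the control range, and without that library the gene passed, at -0.66 (adjusted p = 0.0341). Pcdhga2 likewise passed only without control 3 of all alternatives run, at -0.54 (adjusted p = 0.0385).

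The non-clustered protocadherins, single genes elsewhere in the genome with adhesive roles of their own, are set beside the clusters. Of 10 tested 3 passed, all higher, where 9.67% of all tested genes passed, with a median log2 fold change of 0.13 over the 10. Of those that did not pass, Pcdh20 (-0.20 ± 0.06, adjusted p = 0.0545) and Pcdh1 (-0.18 ± 0.06, adjusted p = 0.0908) were lower in every ketogenic library than in any control library. The remaining ones overlapped between the diets. Pcdh7 rose by 0.72 ± 0.11 (77.8 ± 11.1 CPM in ketogenic and 47.2 ± 2.87 CPM in control libraries, adjusted p = 0.00297) and was called in all 16 alternatives run. Pcdh19, variants of which cause an epilepsy in humans, rose by 0.43 ± 0.08 (126.3 ± 7.63 CPM in ketogenic and 93.65 ± 8.50 CPM in control libraries, adjusted p = 0.00881). Pcdh11x, on the X chromosome, rose by 1.02 ± 0.22 (10.4, 15.4 and 16.7 CPM in ketogenic libraries, against 4.97, 7.86 and 8.17 CPM in control libraries, adjusted p = 0.0192). Both calls were lost without ketogenic 2 (adjusted p = 0.0623 for Pcdh19 and 0.0955 for Pcdh11x) or control 2 (0.0542 and 0.0565), and without control 1 and 2 together (0.0660 and 0.200). That of Pcdh11x was also lost without ketogenic 3 (0.0705) and on log2(FPKM + 1) values (0.0671). Whether the 2 families differ was not tested. The interneuron, subiculum and cortex, and fibroblast markers given beside Pcdhgc4 rose in the same libraries, and their part in these rises was not tested.

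Genes known to act in the choice and silencing of protocadherin promoters, or related to such genes, were set beside the members as well. Of 26, among them cohesin and its loaders, DNA methyltransferases and histone methyltransferases, 0 rose and 1 fell (3.85%, against 9.67% of all tested genes, 4.62% lower), with a median log2 fold change of -0.07. Ctcf averaged 78.1 ± 3.95 CPM in ketogenic and 79.7 ± 5.33 CPM in control libraries (-0.03 ± 0.07, adjusted p = 0.866). Rad21, a cohesin subunit, averaged 122.5 ± 0.383 CPM in ketogenic and 122.3 ± 2.11 CPM in control libraries (0.002 ± 0.06, adjusted p = 0.989). Smchd1, a chromatin protein that represses the clusters in the mouse, averaged 43.2 ± 5.06 CPM in ketogenic and 49.96 ± 2.26 CPM in control libraries (-0.21 ± 0.09, adjusted p = 0.210). Dnmt3b, which methylates isoform promoters in the early mouse embryo, was low, at 0.634 ± 0.245 CPM in ketogenic and 0.674 ± 0.116 CPM in control libraries (-0.08 ± 0.43, adjusted p = 0.940). The gene that fell was Wapl, which releases cohesin from chromatin, with 62.2, 65.5 and 66.3 CPM in ketogenic libraries, against 79.8, 76.8 and 74.3 CPM in control libraries. Its log2 fold change was -0.25 ± 0.07 (adjusted p = 0.0413), and the call was kept without control 3 and lost without ketogenic 1 (adjusted p = 0.0959), ketogenic 2 (0.140), ketogenic 3 (0.0728), control 1 (0.121) or control 2 (0.129), without control 1 and 2 together (0.431), with no filter (0.0560) and on log2(FPKM + 1) values (0.0703).

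The last list holds genes that act with or downstream of protocadherin proteins. Of its 21 genes 1 rose and 5 fell (28.6%, against 9.67% of all tested genes), with a median log2 fold change of -0.09. Like the lists before it, this list was chosen with earlier results of these data known, and these shares are a description only. Ptk2b encodes Pyk2, a kinase that alpha and gamma protocadherins bind and inhibit. It had 876, 739 and 739 CPM in ketogenic libraries, against 1227.6, 1128.5 and 1172.6 CPM in control libraries, and fell by 0.58 on the log2 scale (SE 0.08, adjusted p = 0.00207), a call kept in all 16 alternatives. Ptk2, which encodes the related focal adhesion kinase, averaged 102 ± 3.71 CPM in ketogenic and 109 ± 0.696 CPM in control libraries and did not pass (-0.09 ± 0.06, adjusted p = 0.430). Prkca, a protein kinase C, averaged 301.5 ± 22.6 CPM in ketogenic and 398.4 ± 17.0 CPM in control libraries. Its log2 fold change was -0.40 (adjusted p = 0.00584), and its call was lost only without control 1 and 2 together (0.0544). The list also holds subunits of the WAVE complex, which drives actin branching. Of these, Wasf1 (-0.19, adjusted p = 0.0961), Cyfip1 (-0.23, 0.0812), Abi2 (-0.07, 0.603) and Brk1 (-0.03, 0.921) did not pass. Nckap1, Abi1 and Cyfip2 fell on the log2 scale by 0.28 (adjusted p = 0.0147), 0.25 (0.0290) and 0.24 (0.0328). These 3 calls were lost without ketogenic 2 (adjusted p = 0.0956, 0.154 and 0.162), ketogenic 3 (0.0514, 0.0517 and 0.0726) or control 2 (0.0631, 0.113 and 0.0637), those of Abi1 and Cyfip2 also without control 3 (0.0565 and 0.0548), and that of Cyfip2 without control 1 (0.0953) and on log2(FPKM + 1) values (0.0532). Without control 1 and 2 together all 3 were lost (0.168, 0.211 and 0.216). Marcks, a protein kinase C substrate at the membrane, rose by 0.25 on the log2 scale (adjusted p = 0.0498), a call that was kept without control 3 and with DESeq2, lost without each of the other libraries (the highest adjusted p was 0.221, without ketogenic 2), without control 1 and 2 together (0.535), with limma-voom (0.0560) and on log2(FPKM + 1) values (0.0703). The dentate granule cell markers, 6 of 9 lower, and the markers of field CA3, 6 of 7 lower, moved in the same libraries, with CA3 sums of 227 to 250 CPM in ketogenic and 337 to 356 CPM in control libraries. Of 6 CA1 markers 2 rose and 1 fell. Most interneuron and most subiculum and cortex markers, given beside Pcdhgc4, rose. The part of these markers in the falls of the partner genes was not tested.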

How the data were processed

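Per the file headers, the authors deposited 2 kinds of value for each Ensembl gene: read counts, which all tests here use, and FPKM, used in alternatives, for 6 libraries made with an Illumina TruSeq kit, per the labels' protocols. The submitters' processing notes name CASAVA, featureCounts 1.5.0-p3, DESeq2 1.10.1 and mm9. For the aligner, strand setting, FPKM tool and reads with several matches, nothing is given in the sources used here. Of 53620 gene identifiers shared with GENCODE M21, 97.1% have the same start and end on GRCm38, and mm9 was therefore not used for coordinates.

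The tests used edgeR 4.0.16 under R 4.3.3 (filterByExpr, TMM, quasi-likelihood F-test, no covariates). The SE equals the absolute log2 fold change over the root of F, and 95% intervals use the t distribution of the test. The steps were tested on simulated data. Alternatives used DESeq2 1.42.0, limma 3.58.1 (voom, and log2(FPKM + 1) or log2(FPKM + 0.1)), other scalings and filters, a replicate block and left-out libraries.

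Members were chosen by name alone. Earlier results of these data were known when members, gene lists and alternatives were chosen. Values are given in full for members past the threshold, the 5 C-type genes, the 2 highest by CPM in each cluster, list genes past the threshold, and Ctcf, Rad21, Smchd1 and Dnmt3b. The labels give 6 mice for the 6 libraries. No sequences are printed for these genes.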

Additional observations from a re-analysis of the deposited data

How the results depend on the processing

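The count of all changed genes was 1593. It became 2462 with no filter, 1060 on log2(FPKM + 1) values, 289 without control 1 and 2 together, and between 538 and 1877 with 1 library left out. The alpha and beta clusters had 0 called members in every alternative run. The gamma cluster, with 1, had 0 with limma-voom, on log2(FPKM + 1) and log2(FPKM + 0.1) values, with the replicate block and without control 1 and 2 together, and 0 to 1 with 1 library left out. The C-type count gave the same values in these settings, except that without ketogenic 3 or control 3 it was 0, the gamma gene called there being Pcdhga12 or Pcdhga2. With the replicate block the adjusted p of Pcdhgc4 was 0.0568 at a log2 fold change of 0.55, and 1504 genes passed in all. The block also ended the calls of Wapl (0.0752), Marcks (0.0822) and Taf7 (0.0544), and of no other named gene. Equal numbers share no stated source, and their libraries did not deviate together (correlations of -0.024, 0.061 and 0.029).

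Without control 1 and 2 together the log2 ratio of the summed level was 0.066 for alpha and 0.090 for beta, against -0.056 and -0.055 with all libraries. For the gamma sum it was -0.0085, against -0.080. With 1 library left out the ratios ran from -0.11 to 0.0034 for alpha, from -0.12 to 0.023 for beta and from -0.11 to -0.039 for gamma. Of the non-clustered protocadherins 3 were called, 1 without control 1 and 2 together, and 1 to 4 with 1 library left out. Of the promoter genes 1 was called, and 0 with no filter, on either FPKM scale, with the replicate block, without control 1 and 2 together, and 0 to 1 with 1 library left out. Of the signalling partners 6 were called, 1 without control 1 and 2 together, and 2 to 6 with 1 library left out. The fit on a single control takes its spread from the ketogenic libraries. Of the log2 fold changes of named genes under each alternative, 316 stayed on their side of the threshold, 64 lost the call and 3 gained it. The cause of these changes was not tested.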

Other observations

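The span of the clusters holds 27 other annotated rows, of which 3 had enough counts to test. They were taken by position, with their values already seen. Taf7, which encodes a subunit of the general transcription factor TFIID and lies on the minus strand between the beta and gamma clusters (37640491 to 37644204), had 8.25, 8.65 and 9.91 CPM in ketogenic libraries, against 5.68, 6.26 and 5.99 CPM in control libraries. Every ketogenic library was above every control library, and its log2 fold change was 0.58 ± 0.15 (adjusted p = 0.0363 with edgeR). The call was kept without ketogenic 1 and lost without ketogenic 2 (adjusted p = 0.114), ketogenic 3 (0.125), control 1 (0.1005), control 2 (0.0996) or control 3 (0.0551), and without control 1 and 2 together (0.270). The long noncoding RNA 3222401L13Rik, between Taf7 and Pcdhga1, averaged 2.35 ± 0.718 CPM in ketogenic and 2.01 ± 0.209 CPM in control libraries (adjusted p = 0.692). Gm10544, which overlaps the alpha cluster on the minus strand, averaged 0.550 ± 0.271 CPM in ketogenic and 0.635 ± 0.0834 CPM in control libraries (adjusted p = 0.843).

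Diaph1, an actin-nucleating formin that follows the gamma cluster on the minus strand, had 82.6, 81.8 and 84.6 CPM in ketogenic libraries, against 123.8, 94.7 and 94.9 CPM in control libraries. The diets did not overlap, and the gene missed the threshold at -0.33 ± 0.10 (adjusted p = 0.0680 from edgeR). Much of the change rested on control 1: without that library it was -0.19 (adjusted p = 0.151). It passed with DESeq2 (adjusted p = 0.0237), without control 3 (0.0363) and with no filter (0.00297). The counts of tested members varied between libraries of the same diet by a median of 2.65 times the variance that counting alone gives, against 3.27 times over all tested genes. This ratio depends on abundance, and the median level was 6.43 CPM for the members and 18.6 CPM for all tested genes. The ratios were not compared at matched levels.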
